A study of Mus musculus with 4 samples.

Results

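Histone transcripts were examined in whole left hippocampi of wild-type mice, measured on 1 Affymetrix expression array per sample. The 4 samples, numbered 11, 13, 15 and 17 in the labels and described there as biological replicates, form 1 group, and the labels used here name no strain, age or sex. The histone genes were those whose probe sets carry exactly 1 gene symbol and whose symbol marks a histone gene, which gave 25 probe sets for 18 of the 18194 genes with a symbol of their own on the array. They comprise 9 replication-dependent genes, 6 replacement genes and 3 genes of the germ line. Each gene is represented by its probe set with the highest mean, and 4 values in a row always stand for samples 11, 13, 15 and 17 in that order. Nothing in the labels says more about how the replicates were obtained, so the spread between them may be biological or technical.

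Histones are the proteins around which DNA is wound. H2A, H2B, H3 and H4 form the core of the nucleosome, and H1 binds the linker DNA between nucleosomes. Replication-dependent histones come from clustered, mostly intronless genes that are read mainly in S phase, and their messenger RNAs typically end in a stem-loop bound by the protein SLBP in place of a poly(A) tail. Replacement histones are made throughout the cell cycle from polyadenylated messengers and are the main supply of non-dividing cells such as neurons, and several clustered genes are known to make polyadenylated messengers as well in differentiated cells. The labelling kit named in the labels starts its amplification from the poly(A) tail, so the array reads mainly tailed messengers. In whole tissue, fewer cells of a type and less RNA per cell cannot be told apart.

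The 4 arrays had median log2 intensities between 4.67 and 4.71, and their number limits the precision of every value. Of the neuronal and hippocampal field markers, 11 of 12 were above background, and only the kainate receptor subunit Grik4 was under it. Astrocyte markers were above it in 8 of 8 cases, myelin markers in 6 of 9, microglial markers in 5 of 7, choroid plexus markers in 1 of 8 and blood markers in 0 of 5. Background was set at 7.30, the 95th percentile over 49 genes not expected in this tissue. That limit is high because Tff1, Lct and Krt10 on that list had means of 8.43, 7.84 and 7.44, and at the 90th percentile it was 6.16. Over all genes, 32.6% were above 7.30 and 47.9% above 6.16. A gene under the limit may still be expressed, and because probe sets differ in affinity, levels of different genes are set against the limit and not against each other.

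Among the genes with a probe set of their own, most replacement histones and few replication-dependent ones were above background. Of the 6 replacement genes, 4 passed the limit, namely H2az1, H1f10, H2ax and H2az2. Of the 9 replication-dependent genes, 1 passed, the linker histone gene H1f2, against 32.6% of all genes. At the limit of 6.16 the counts were 4 of 6 and 2 of 9, against 47.9% of all genes, the additional gene being H2ac19. All 3 germ-line genes were under background. These counts have no test, since genes are not replicates and the study holds 1 group. The choice of probe sets bears on them. With only the probe sets whose names carry no letter mark such as _a, _s or _x, 2 replacement genes passed. H2az1 had no such set and dropped out of that count, and the limit there was 7.16. When a gene's probe sets were summarised by their median, 3 replacement genes and 0 replication-dependent genes passed. The share of all genes passing under those choices is not given, so whether the lower counts are particular to histones cannot be told.

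**Figure D1:**
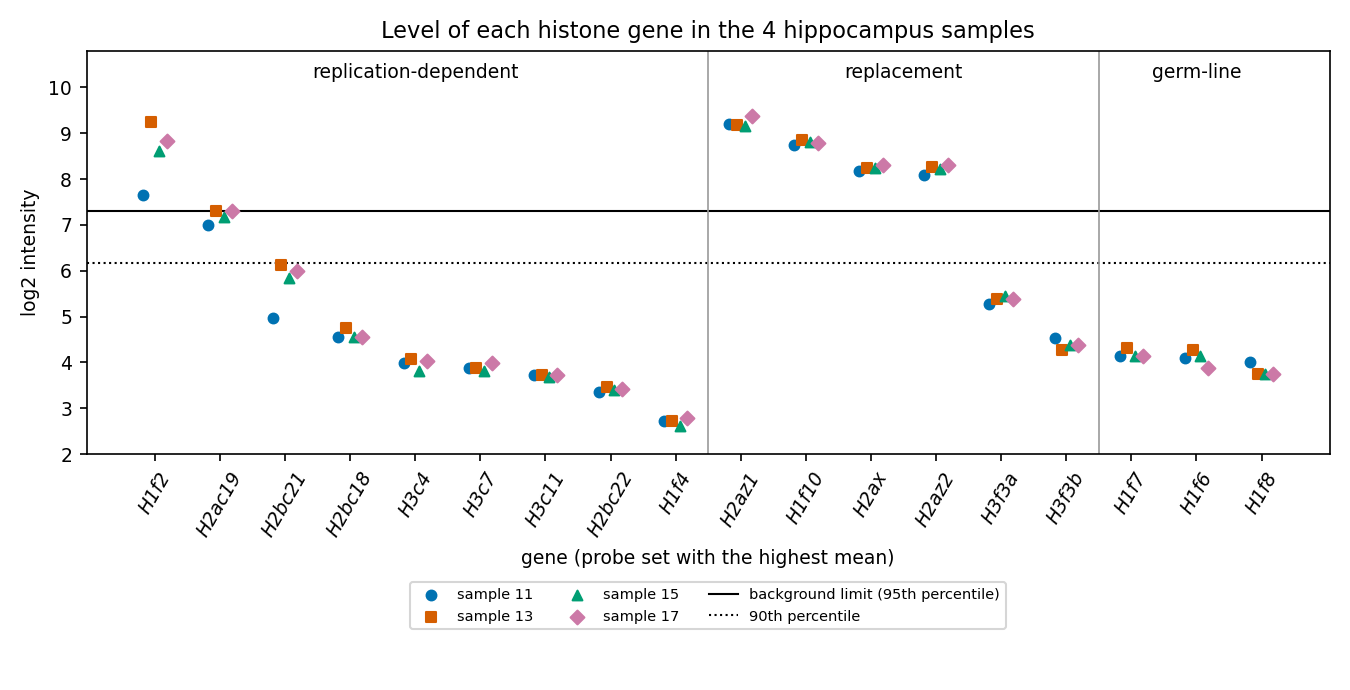
Log2 intensity (vertical axis) of the 18 histone genes (horizontal axis, by class) in each of the 4 samples, shown as 1 point per sample, with the background limits as lines. The 4 samples of H1f2 spread from 7.65 to 9.24, while those of the 4 replacement genes above the limit lie close together.

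Promoters are shown for the linker histone genes H1f2, H1f4 and H1f6, because H1f2 stood above background while H1f4 and H1f6 of the same chromosome did not, and for H2az1 as a replacement gene. Each sequence is the 250 bases before the annotated start, from RefSeq with build GRCm38.p6, 5′ to 3′, with motif matches in capitals. The motifs searched on both strands were AAACACA, a conserved element of H1 promoters, the CCAAT box, the TATA box spelled TATAAA, the GC box spelled GGGCGG, and the octamer ATTTGCAT known from H2B promoters.

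H1f2, chr13:23738557-23738806, plus strand: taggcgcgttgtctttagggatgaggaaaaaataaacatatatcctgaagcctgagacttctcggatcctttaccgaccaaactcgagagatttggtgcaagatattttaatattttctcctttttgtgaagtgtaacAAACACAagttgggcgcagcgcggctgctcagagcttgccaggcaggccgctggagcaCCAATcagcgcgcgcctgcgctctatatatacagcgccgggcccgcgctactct
H1f4, chr13:23622559-23622808, minus strand: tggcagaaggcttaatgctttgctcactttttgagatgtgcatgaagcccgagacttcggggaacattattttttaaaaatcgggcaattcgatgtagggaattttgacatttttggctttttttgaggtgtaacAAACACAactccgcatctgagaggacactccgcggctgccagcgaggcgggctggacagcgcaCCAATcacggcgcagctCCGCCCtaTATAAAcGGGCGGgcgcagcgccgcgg
H1f6, chr13:23695561-23695810, plus strand: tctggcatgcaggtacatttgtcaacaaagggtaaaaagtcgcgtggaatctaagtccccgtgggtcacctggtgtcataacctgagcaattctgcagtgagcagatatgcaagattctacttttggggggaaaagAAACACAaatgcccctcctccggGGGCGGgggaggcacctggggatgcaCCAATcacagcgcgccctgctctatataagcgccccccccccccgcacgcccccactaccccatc
H2az1, chr3:137864237-137864486, plus strand: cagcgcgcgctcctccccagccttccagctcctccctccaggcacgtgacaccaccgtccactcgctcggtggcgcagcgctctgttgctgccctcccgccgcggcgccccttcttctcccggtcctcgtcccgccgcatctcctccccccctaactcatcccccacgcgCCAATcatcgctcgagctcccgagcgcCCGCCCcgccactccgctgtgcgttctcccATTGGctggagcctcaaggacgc

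These 3 linker genes held AAACACA on their own strand, starting 112 bases before the start in H1f2, 115 in H1f4 and 114 in H1f6. The other linker genes, H1f7, H1f8 and H1f10, did not hold it in this window, so 3 of 6 did, and H3f3a held it on the opposite strand. Over 32851 promoter windows of the same length, 6.25% held it. CCAAT followed at 54, 52 and 65 bases before the start, and 33.8% of windows held that box. The word TATAAA was found 27 bases before the start of H1f4, and 12.4% of windows held it. That exact word was in neither H1f2 nor H1f6. H2az1 had CCAAT on both strands and a GC box on the opposite strand, a motif present in 32.7% of windows. Of the 15 member genes with a promoter entry, the octamer was found in H2bc18, at 48 bases before the start, and in H3f3b on the opposite strand, at 74, against 1.60% of windows. CCAAT was found in 7 of 7 replication-dependent, 4 of 5 replacement and 2 of 3 germ-line promoters. These matches describe letters and show no binding, and whether they bear on the levels was not tested.

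H1f2, which encodes the linker histone variant H1.2, had one of the largest spreads between the samples. Its log2 intensity was 7.65, 9.24, 8.61 and 8.83. Sample 11 was lowest and sample 13 highest, 3.02-fold apart, and the mean was 8.58 ± 0.68 (SD, n = 4). By SD the gene ranked 5 among the 5930 genes above background, whose median SD was 0.080. Of the genes above background, 48.1% were lowest in sample 11 and 9.66% were also highest in sample 13, so being lowest in sample 11 was common on these arrays. Without sample 11 the H1f2 range fell from 1.59 to 0.63 on the log2 scale. Another H1f2 probe set, under background, stood at 4.80, 6.37, 5.76 and 5.86. It gave the same sample order and a 2.97-fold range. The third set, the dimmest, stood at 5.10, 5.19, 5.10 and 4.78, and its range was 1.33-fold with sample 17 lowest.

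The spread of a probe set was tested against the spread usual at its level with limma, over the 8966 probe sets above background. The H1f2 probe set had an unadjusted p of 0.0070 and a Benjamini-Hochberg adjusted p of 0.891, so it did not pass. At an adjusted p of 0.05 the share passing over all of them was 0%, and 3.27% had an unadjusted p under 0.05, and of the 6 histone probe sets with 1 symbol tested, 0 passed and 1 had an unadjusted p under 0.05. The other single-symbol sets of the 6 had unadjusted p-values of 0.28 or more. Of the 9 shared histone probe sets above background, which the same test covered, 0 had an unadjusted p under 0.05, and the lowest values were 0.055 and 0.062, for a pair of H2B sets.

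H2bc21, an H2B gene of the replication-dependent class, was under background and had the next largest spread. Its brighter probe set stood at 4.96, 6.13, 5.85 and 5.9996, a 2.24-fold range. The dimmer one stood at 4.43, 5.24, 4.90 and 4.98, a 1.75-fold range. Both were lowest in sample 11 and highest in sample 13, with samples 15 and 17 between.

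H2ac19, an H2A gene of the same class, lay just under the limit. Its level was 6.99, 7.31, 7.18 and 7.31, with a mean of 7.20 ± 0.15 (SD, n = 4). Its second probe set stood at 6.91, 7.05, 7.22 and 7.41. Both were lowest in sample 11, and the samples differed by 1.25-fold and 1.42-fold.

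The other replication-dependent genes were dim and varied little. H2bc18, an H2B gene, had a level of 4.61 ± 0.099 (SD, n = 4), the H3 genes H3c4, H3c7 and H3c11 had levels of 3.98 ± 0.11, 3.89 ± 0.071 and 3.71 ± 0.021, H2bc22 of 3.40 ± 0.046 and the linker gene H1f4 of 2.71 ± 0.076. Their samples lay at most 1.20-fold apart. Equal values in at least 2 samples occurred in 9 of the 25 histone probe sets and lower the SD there.

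Replacement histones above background differed little between the samples, though as a group not less than other genes. Over all genes above background the median SD was 0.080. H2az1 at 0.106 and H2az2 at 0.089 lay above it, and H2ax at 0.050 and H1f10 at 0.045 below. H2az1, the main gene of H2A.Z, a variant found near transcription start sites, stood at 9.20, 9.18, 9.15 and 9.39. Its second probe set stood at 8.73, 8.65, 8.65 and 8.88. Both sets were highest in sample 17, by at most 1.18-fold. H2az2, which encodes the second form of H2A.Z, stood at 8.09, 8.26, 8.21 and 8.30. Its other set, under background, stood at 6.08, 6.24, 6.26 and 6.31. Sample 11 was lowest and sample 17 highest in both. H2ax, whose protein is phosphorylated at DNA breaks, had 8.18, 8.23, 8.24 and 8.30, and H1f10, a linker histone outside the clusters, had 8.74, 8.85, 8.81 and 8.78. The samples of H2ax lay 1.09-fold apart and those of H1f10 1.08-fold, so these genes were nearly level across the group. H2ax is counted as a replacement histone by its name, and its messenger is known in both the stem-loop and the tailed form.

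H3.3, the replacement form of H3, is encoded by H3f3a and H3f3b, and their own probe sets were under background. H3f3a stood at 5.27, 5.38, 5.45 and 5.38, and H3f3b at 4.54, 4.27, 4.39 and 4.38. The 5 probe sets that the array table assigns jointly to these and related H3.3 sequences had means between 9.33 and 10.77, all above the limit. Whether H3.3 counts as detected here thus depends on which of these probe sets are read.

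The germ-line genes had low levels throughout. H1f6, the linker histone of spermatocytes, had a level of 4.09 ± 0.16 (SD, n = 4), H1f7 of spermatids 4.19 ± 0.086 and H1f8 of oocytes 3.82 ± 0.13. The dimmer H1f7 set had 2.81 ± 0.035.

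Probe sets shared by several histone symbols cannot be assigned to a gene. There were 24 of them, 17 for replication-dependent families and 7 for replacement families. Above background were 6 of the 7 replacement sets and 3 of the 17 replication-dependent sets, against 19.9% of all probe sets on the array, so the latter share lies near the overall one. The 3 were an H2A set shared by 10 symbols and a pair of H2B sets shared by 11 and 3 symbols. The H2A set had a mean of 7.43 ± 0.16 (SD, n = 4), and the H2B sets had means of 9.69 ± 0.21 and 8.86 ± 0.26. H4, the family without a probe set of its own here, had 5 shared sets, with means from 2.45 to 6.32. The 5 shared H3 sets had means from 2.97 to 6.65. Of 60 replication-dependent genes in the RefSeq table, 9 had a probe set of their own, 41 appeared on shared probe sets alone and 10 on neither. Counts by gene thus cover a minor share of that class.

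**Figure D2:**
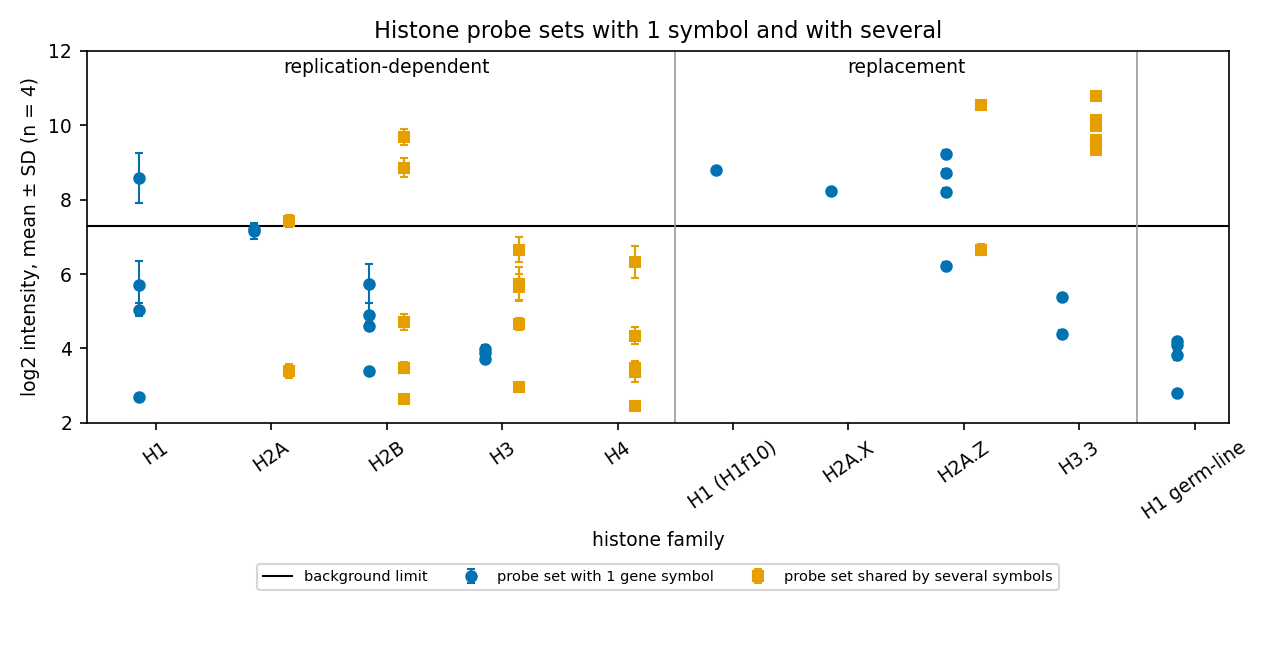
Mean log2 intensity ± SD (n = 4, vertical axis) of every histone probe set by family (horizontal axis), circles for sets with 1 symbol and squares for shared sets, with the background limit as a line. H3.3 lies between 4.39 and 5.37 by its own sets and between 9.33 and 10.77 by the shared ones, and shared H2B sets reach 9.69.

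The sample differences of H1f2 and H2bc21 recurred in part of the shared replication-dependent probe sets. The H2B set shared by H2bc4, H2bc6 and H2bc8 stood at 8.52, 9.16, 8.85 and 8.90. An H3 set under background stood at 5.07, 6.12, 5.80 and 5.91. In both, sample 11 was lowest and sample 13 highest, with sample 15 under sample 17. An H4 set under background had the same order, at 5.93, 6.77, 5.98 and 6.61, with samples 11 and 15 close together and samples 13 and 17 higher.

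The order 11, 15, 17, 13 from low to high was chosen after these values were seen. It was found in 5 of 13 replication-dependent sets with 1 symbol, in 6 of 17 shared ones, and in 0 of 8 and 0 of 7 replacement sets. Over all probe sets 1.67% had it, and over genes above background 3.76%. A probe set with equal values between samples cannot show this order, which lowers the share where such sets are common. The counts include the sets that led to the choice of order, so they lend it no separate support. The extremes alone, lowest in sample 11 and highest in sample 13, occurred in the same numbers of replication-dependent sets, 5 and 6, and in 1 of 8 and 1 of 7 replacement sets, against 5.04% of all probe sets. The sets share genes and similar sequences, and of the 5, 2 belong to H1f2, 2 to H2bc21 and 1 to the dim H2bc22, so they are not independent. The mean deviation of the 3 shared replication-dependent sets above background was -0.19, 0.27, -0.086 and 0.0047, a 1.37-fold span. For the 6 shared replacement sets it spanned 1.03-fold, and for the 4 replacement genes above background 1.10-fold.

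**Figure D3:**
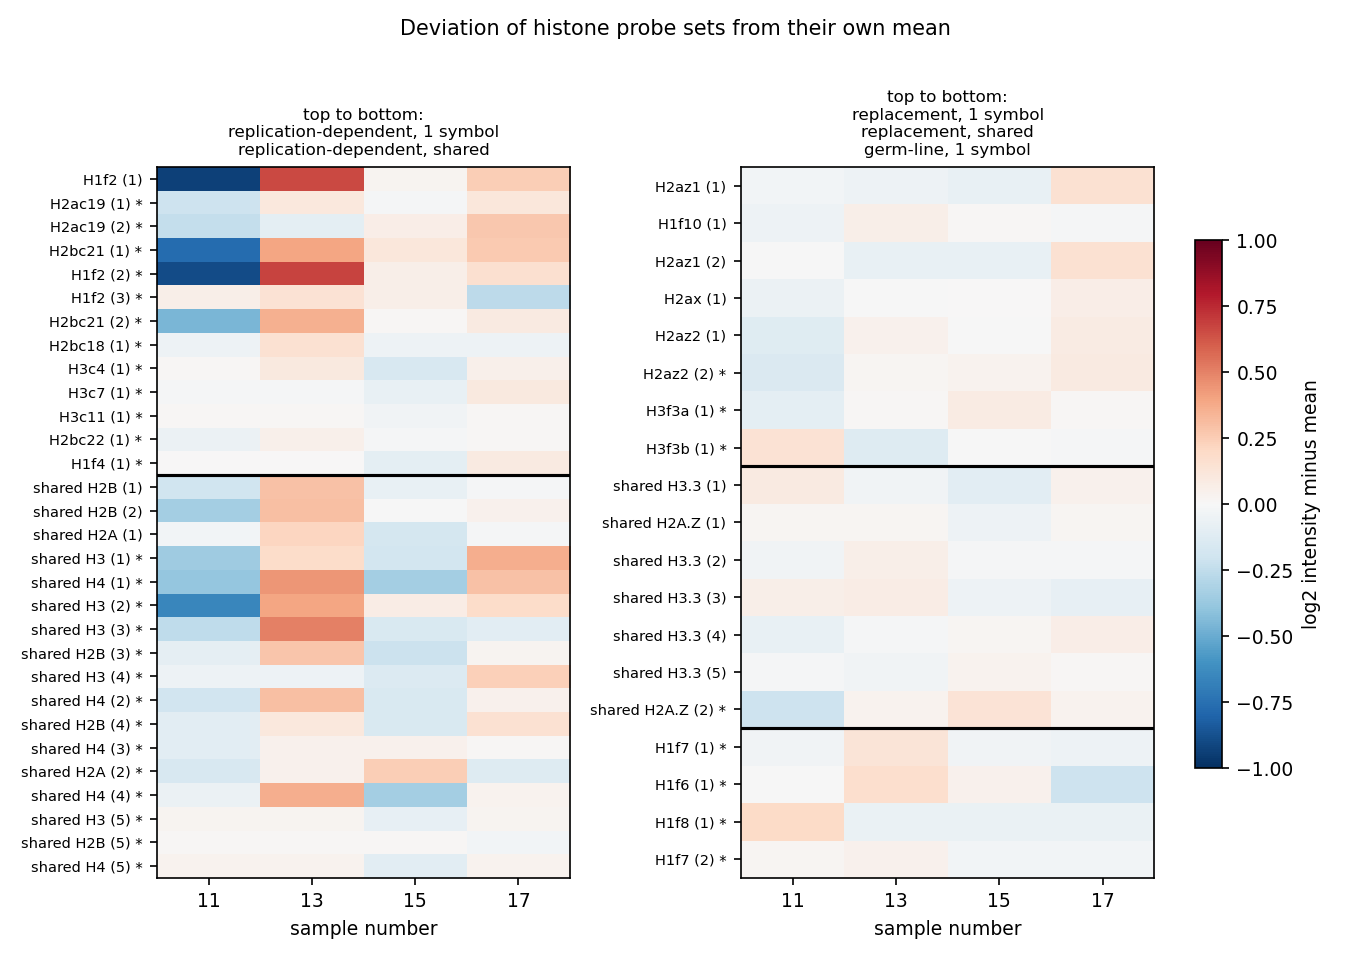
Log2 intensity minus the probe set's own mean (colour) for every histone probe set (rows, by class and by falling mean, with an asterisk for sets under background) in the 4 samples (columns). The 2 brighter H1f2 sets and both H2bc21 sets are lowest in sample 11 and highest in sample 13, and shared sets of H2B, H3 and H4 include some with the same extremes, while replacement sets are pale.

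Other features of the samples also differed between the arrays, in part with other extremes. Myelin markers above background deviated by -0.21, 0.36, -0.030 and -0.12, a mean that was lowest in sample 11 and highest in sample 13. Of the 6 genes behind it, 6 were highest in sample 13, 3 were lowest in sample 11 and 3 in sample 17. The mean deviations of astrocyte and microglial markers were lowest in sample 11 as well, at -0.10 and -0.20, with the highest in samples 17 and 15. Over all 9 measured myelin markers the mean level ran from 8.43 to 9.08, and Mog, Ugt8a and Cldn11 were under the limit. The choroid plexus gene Ttr, the only marker of that list above the limit, stood at 7.36, 9.84, 6.86 and 6.54. Of the markers under the limit, Kl, Folr1, Clic6 and Otx2 were highest in sample 13. Kcnj13 and Cldn2 were highest in sample 11 and Aqp1 in sample 17. For Gapdh the log2 difference between the 3' and 5' probe sets, a sign of RNA quality, was 0.62, 0.62, 2.64 and 3.79. For Actb it was 1.10, 1.25, 1.93 and 2.33. Both were largest in sample 17, followed by sample 15, and their bearing on the histone levels was not tested. The part of these features in the histone differences was not tested.

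Whether separate probe sets of a gene saw the same sample differences was tested by an F test with variances squeezed by limma, over 1580 genes with at least 2 probe sets above background. H2az1 was the only histone gene tested, with an unadjusted p of 0.0077 and an adjusted p of 0.095, so 0 of 1 passed against 2.72% of all genes tested. Unadjusted p-values were under 0.05 for 22.2% of those genes. Without the filter on dim probe sets, 6 histone genes could be tested and 0 passed, against 0.144% of 9012 genes. There, with squeezing by limma, H2bc21 had an unadjusted p of 0.0012 and an adjusted p of 0.179, and H1f2 of 0.023 and 0.460.

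Of the genes that handle histones, those of deposition outside S phase were mostly above background, and those of S phase and mitosis were under it with 1 exception. Of 20 measured genes of replication-independent deposition, 15 were above the limit, among them Ubn1, a partner of the H3.3 chaperone HIRA, at 8.14 ± 0.076 (SD, n = 4), while Hira itself had a level of 6.88 ± 0.16. Of 10 measured replication-coupled chaperone genes, 3 passed, or 30%, near the 32.6% of all genes. Rbbp4, which is also part of other chromatin complexes, stood at 10.02 ± 0.095. Chaf1b of the CAF-1 complex was under background at 3.57 ± 0.10. Of 13 genes of histone gene transcription and 3' end processing, 6 passed. Slbp, which binds the stem-loop, had a level of 7.54 ± 0.084, and Lsm10 of the U7 snRNP had 6.62 ± 0.12. Of 21 genes of S phase and mitosis, 1 passed, the polymerase clamp gene Pcna at 9.19 ± 0.077, and the cycling marker Mki67 and the topoisomerase gene Top2a had levels of 3.01 ± 0.14 and 3.72 ± 0.29.

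**Figure D4:**
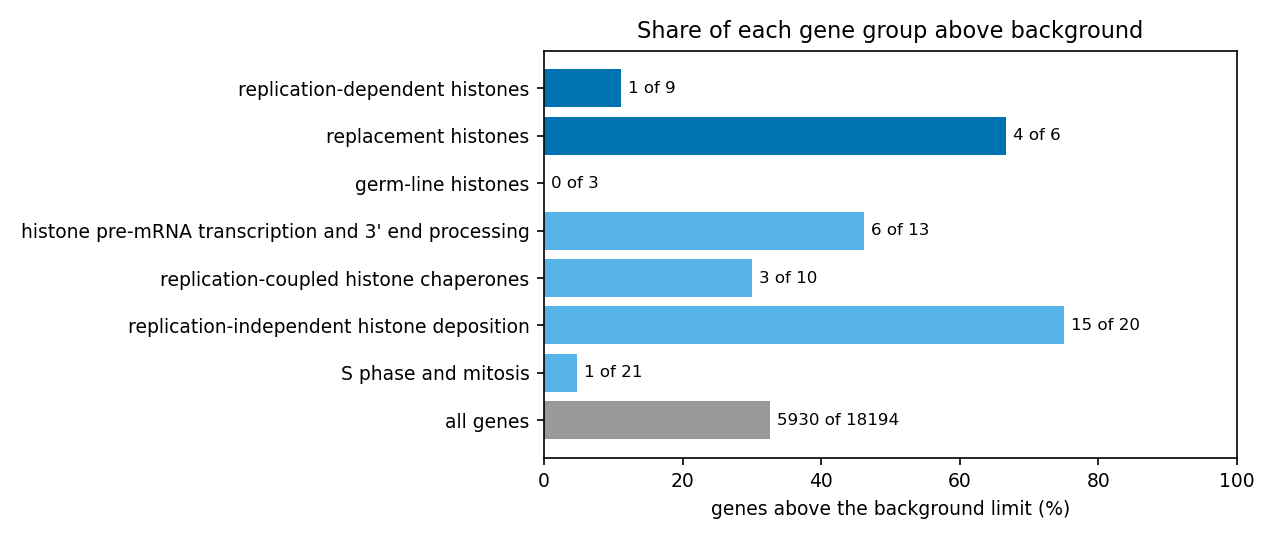
Share of genes above the background limit in percent (horizontal axis) for the histone classes and for the lists of histone-handling and S phase genes (vertical axis), with all genes for comparison and the counts beside the bars. Replacement histones are at 4 of 6 and replication-independent deposition at 15 of 20, against 1 of 9 replication-dependent histones, 1 of 21 genes of S phase and mitosis and 32.6% of all genes.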

How the data were processed

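The authors deposited log2 intensities, 1 value a probe set and array. Per the submitters' processing notes they come from RMA, with version and settings not given in the sources used here. RMA corrects background and brings arrays to a common distribution, which can hide shifts that all genes share. Gene symbols came from the array's probe table: 34958 of 45101 probe sets had 1 symbol, 932 several and 9211 none. The members and lists were chosen with earlier results of these data known. A gene counted as detected when the mean of its brightest probe set with 1 symbol exceeded the 95th percentile of 49 measured of 54 listed genes not expected in hippocampus. Spread was tested with limma (lmFit, eBayes with trend and robust fit): residual over prior variance as F with 2.33 prior degrees of freedom. Agreement between probe sets used the mean square between samples over that of probe set by sample, squeezed by squeezeVar. Both used Benjamini-Hochberg adjustment at 0.05 over all features and were tested on simulated data. For the spread test, the simulation that had to pass gave all probe sets but the planted ones equal true variances, unlike these data. Named genes were all replacement and germ-line genes, replication-dependent genes above or just under background, and the first 2 measured genes of each list of histone-handling and S phase genes. Pcna, Ttr, the remaining dim genes, the shared probe sets and the sample order were named after their values were seen. Tests ran in R 4.3.3 with limma 3.58.1, and figures were drawn with matplotlib 3.10.9 under Python 3.11.15.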

Additional observations from a re-analysis of the deposited data

Results flagged for a closer look

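In 13 of 76 sets of 4 values examined, 1 sample stood apart from the other samples by more than Dixon's 95% critical share of the whole range, where chance gives about 1 in 20. In 12 of the 13 at least 2 samples held exactly equal values, which makes the gap to the remaining sample look large.

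Among histone genes, H1f7 was apart in sample 13 at 4.32, H1f8 in sample 11 at 4.0048, H2bc18 in sample 13 at 4.76 and H3c11 in sample 15 at 3.68. Among shared probe sets, an H2A.Z set was apart in sample 15 at 10.50, an H2B set in sample 17 at 2.62, an H3 set in sample 15 at 2.89 and an H4 set in sample 15 at 2.34. Of other histone genes outside the symbol rule, Macroh2a2 was apart in sample 17 at 6.31 and H2ap in sample 17 at 3.59. Lsm10 was apart in sample 11 at 6.44 and Mki67 in sample 17 at 3.21. The mean deviation of the 6 shared replacement sets was apart in sample 15 at -0.027, in a span of 0.038 on the log2 scale.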

How the results depend on the processing

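The 5 histone genes above background became 3 when each gene took the median of its probe sets and 3 with only the probe sets whose names carry no letter mark. For replication-dependent genes the count of 1 became 2 at the 90th percentile and 2 when the 3 brightest background genes were left out, an alternative chosen after seeing the data, and 0 with the median over probe sets, where their span then has no value. For replacement genes the count of 4 became 3 with the median over probe sets and 2 with unmarked probe sets. In the latter case H2az1 had no probe set left, and the limit was 7.16. For the median and for unmarked probe sets the share of all genes passing is not given. The span of the replication-dependent mean, 1.59 and given by H1f2 alone, was 0.38 with no filter, which averages 9 genes, 0.32 with unmarked probe sets, where H2ac19 takes its place, 0.96 both at the 90th percentile and without the 3 brightest background genes, where H2ac19 joins, and 0.63 to 1.59 with each sample left out. That of the replacement mean was 0.14, 0.075 without samples 15 and 17, and 0.075 to 0.14 with each sample left out. The limma test of spread and the test of probe sets gave 0 histone calls under each alternative run. The spread test also passed 0 of all probe sets in each of its settings, so its 0 histone calls do not set histones apart. No paired analysis was possible because the study holds 1 group. The number of arrays and signal near background limit what can be seen.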

Other observations

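Histone genes outside the symbol rule gave further values. Macroh2a1, which encodes the main macroH2A, had a level of 9.28 ± 0.045 (SD, n = 4) and was above background. H2aj, a replacement H2A of differentiated cells, was above it too, at 8.20 ± 0.16. H2aw, at 7.31 ± 0.20, had a mean only just above the limit. Its samples 13 and 17, at 7.56 and 7.36, were above the limit, and samples 11 and 15, at 7.23 and 7.08, under it. H2aw was assigned to no class here and is not in the class counts. Macroh2a2 was under background at 6.13 ± 0.12. Cenpa, the centromeric H3, stood at 3.89 ± 0.052 and the spermatid gene Hils1 at 3.91 ± 0.060. H2aj was highest in sample 17, at 8.42 against 8.09 in sample 11, 8.08 in sample 13 and 8.19 in sample 15.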
